A study of Mus musculus with 2 samples.

Results

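Genes that mark the epicardium and other mesothelia, 9 in all, were followed in whole embryonic mouse hearts. They were Wt1, Tcf21, Upk3b, Upk1b, Msln, Sema3d, Scx, Lrrn4 and Krt19. The 9 were chosen by name, and all were found once each among the 43346 gene rows of the deposited tables.

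The study profiled total RNA of the heart of strain B6NCrl at embryonic day 14.5, with 2 libraries in 1 group. The labels give each library as a single heart. The libraries are biological replicate 1, taken on July 15, and biological replicate 2, taken on July 17. Each used 10 ng of RNA longer than 200 nucleotides with spike-in RNAs added. Both carry the same strain and age labels and no treatment, so the only contrast is between the 2 hearts, and embryo and collection day cannot be told apart. The labels also call the sex pooled male and female, which conflicts with a single heart. Genes that differ by sex were not examined. Which label holds was therefore not settled here, nor whether the libraries differ in sex. Where 1 heart or 1 embryo per library is written below, it follows the single-heart label.

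The epicardium is the mesothelial sheet that covers the heart. Some of its cells leave the sheet by epithelial-mesenchymal transition and give rise to fibroblasts and mural cells of the coronary vessels. Wt1 and Tcf21 are transcription factors used to mark the epicardium and the mesenchyme derived from it, while uroplakins, mesothelin and simple keratins are surface and cytoskeletal products of mesothelium in many organs.

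The libraries held 28537173 estimated counts in replicate 1 and 28958839 in replicate 2, of which spike-ins took 3.74% and 3.55%. The heart identity was plain, since the 7 cardiomyocyte markers examined lay between 861 and 12209 TPM (a level normalised to transcript length and library depth). A gene with an effective length of 1 kb reaches 0.0478 TPM in replicate 1 and 0.0475 TPM in replicate 2 with 1 count. There is 1 library per embryo and a single group, so no p-value can be given for a difference between the hearts. A mean ± SD below is over the 2 libraries (n = 2). An interval on a difference covers counting error only, and no molecular identifiers are recorded, so reads are not independent molecules.

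All 9 genes were detected in both hearts, meaning at 1 TPM or more. Together they reached 179 TPM in replicate 1 and 207 TPM in replicate 2, a mean of 193 ± 19.7 TPM. Tcf21 was the most abundant at 53.5 ± 3.76 TPM, above 82.2% of the 13635 genes detected in both hearts. Scx was the least abundant at 6.55 ± 0.792 TPM, above 30.5% of them. In order of mean TPM the genes ran Tcf21, Upk3b, Krt19, Msln, Wt1, Upk1b, Sema3d, Lrrn4 and Scx. Of the 8 pairs of neighbours in that order, 6 had ranges over the hearts that did not overlap. The exceptions were Upk3b with Krt19 and Lrrn4 with Scx. In whole tissue, fewer cells of a type and less RNA per cell cannot be told apart, and this holds for every level and difference given here.

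**Figure D1:**
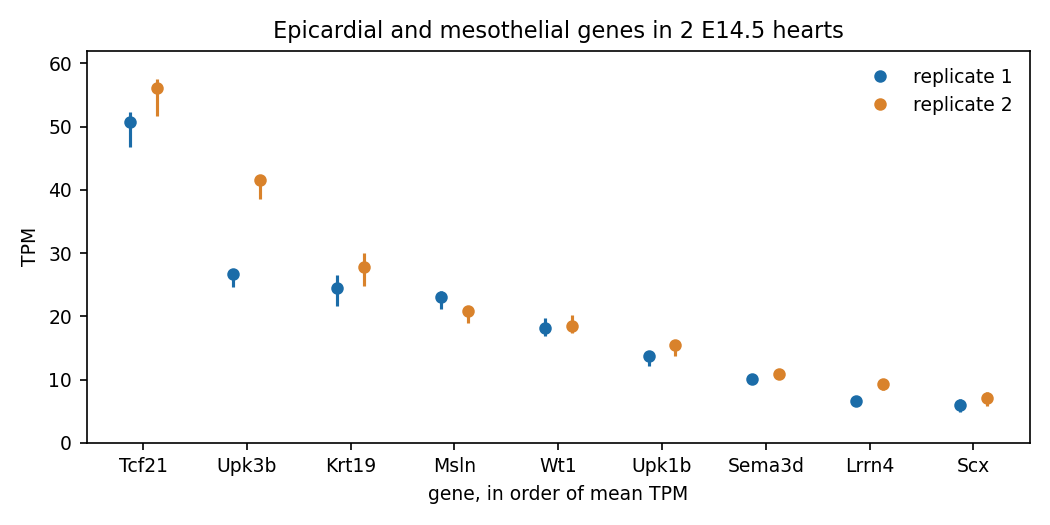
Level of each gene in TPM (vertical axis) in replicate 1 (blue, left) and replicate 2 (orange, right), genes in order of mean TPM. Points are the deposited TPM and lines the authors' credibility interval, whose level is not stated and which can lie mostly below the point. Upk3b is at 26.7 TPM in replicate 1 and 41.5 TPM in replicate 2, while the points of Wt1 are at 18.1 and 18.4 TPM.

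Differences between the hearts were small for most of the genes. Differences are log2 of replicate 1 over replicate 2 from scaled counts, so a negative value means a lower level in replicate 1. Only Upk3b differed by 1.5-fold or more, and it was lower in replicate 1. Among the 16387 genes whose mean count was 10 or more, 10.4% differed by that much in either direction, with 4.22% higher and 6.14% lower in replicate 1. Among the 11958 genes whose mean count was 100 or more, a depth that all 9 genes reached, the shares were 1.95% in either direction, 0.61% higher and 1.34% lower in replicate 1. So 1 of 9 genes was past 1.5-fold lower in replicate 1 and 0 of 9 past 1.5-fold higher. The median difference of the 9 was -0.12, beside -0.0016 over all genes at that first depth. By sign, 7 genes were lower in replicate 1 (77.8%) and 2 higher, against 50.4% of all genes lower in replicate 1. When the libraries were scaled by the spike-ins, the median of all genes moved to -0.11 and that of the 9 genes to -0.23. Such a change shifts every gene by nearly the same amount, so the distance between the medians could not test the offset. With spike-in scaling, and in the ratio of TPM, 8 of the 9 were lower in replicate 1.

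**Figure D2:**
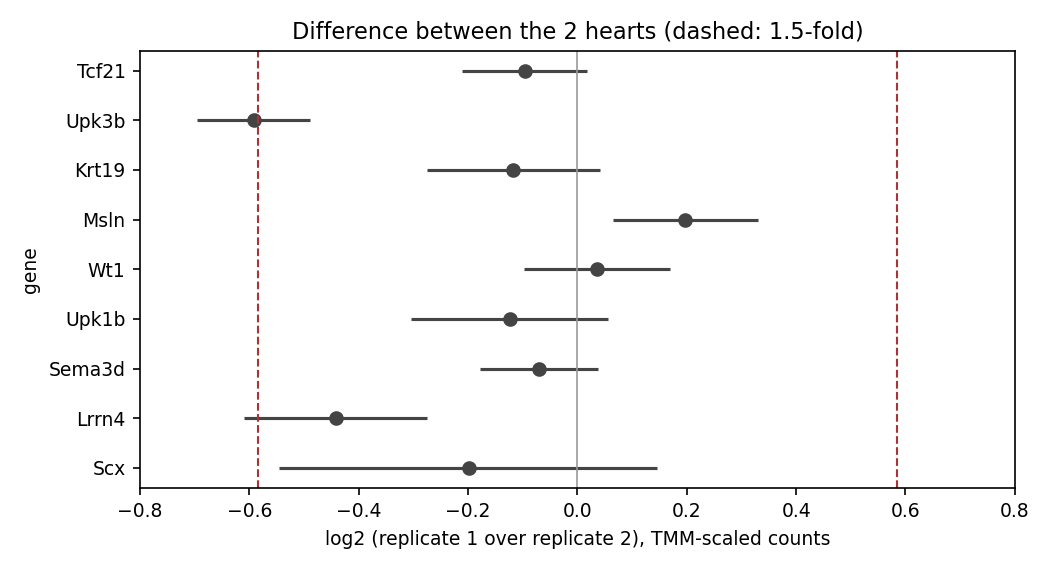
Difference between the hearts for each gene as log2 of replicate 1 over replicate 2 (horizontal axis), from TMM-scaled counts, genes in order of mean TPM. Points are the estimates, lines their 95% Clopper-Pearson intervals for counting error, and dashed lines mark 1.5-fold. Upk3b at -0.59 and Lrrn4 at -0.44 lie farthest from 0, and Msln at 0.20 is the gene farthest to the other side.

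The first group by role is the transcription factors. Wt1, on chr2:105126529-105173616 (GRCm38, plus strand), encodes a zinc finger protein needed for the epicardium to form mesenchyme. Wt1 had 18.1 TPM in replicate 1 and 18.4 TPM in replicate 2, from 909 and 921 estimated counts. The hearts were nearly equal, with a log2 difference of 0.04 (95% interval -0.10 to 0.17). The sign of the Wt1 difference turned negative with spike-in scaling and in the plain ratio of TPM. The mean of 18.3 ± 0.212 TPM lay above 56.8% of detected genes.

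Wt1 is the one gene of the 9 for which the tables list many transcripts, 8 in all, of which 5 had counts in both hearts. Its products are known for 2 splice choices, which is why these stretches are shown. One choice is the use of exon 5, a 51-base exon at chr2:105144142-105144192, printed in capitals for its whole length. The other is a pair of donor sites at the end of exon 9, which adds or leaves out 9 bases (chr2:105170010-105170018) that encode lysine, threonine and serine between zinc fingers. The insert is in capitals in the exon 9 to exon 10 junction of Wt1-205, and the same junction of Wt1-202 lacks it. All are on the plus strand of GRCm38.
Wt1 exon 5: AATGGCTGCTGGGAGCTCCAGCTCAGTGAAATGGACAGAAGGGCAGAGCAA
Wt1-205 junction: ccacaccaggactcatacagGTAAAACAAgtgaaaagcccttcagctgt
Wt1-202 junction: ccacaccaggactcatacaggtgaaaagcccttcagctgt

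Transcripts with the 9-base insert carried 71.8% of Wt1 TPM in replicate 1 and 60.4% in replicate 2. Those without it carried 18.0% and 24.4%, so in both hearts the annotated forms with the insert took the larger share. Transcripts with exon 5 carried 48.1% in replicate 1 and 56.6% in replicate 2, and coding transcripts without it 41.7% and 28.3%. The remaining 10.2% and 15.2% went to 2 retained-intron models, Wt1-206 and Wt1-208. The upstream first exon (chr2:105126529-105127442) opened transcripts with 31.6% of Wt1 TPM in replicate 1 and 32.1% in replicate 2. The downstream one (chr2:105130883-105131152) opened those with 58.2% and 52.7%, so the downstream first exon had the larger share in both hearts.

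The single transcripts behind these shares were less certain than the gene. Wt1-201, with the insert and no exon 5, had 7.29 TPM in replicate 1 and 5.20 TPM in replicate 2. Its deposited credibility intervals were 5.40 to 8.98 TPM and 3.33 to 7.17 TPM, so they overlap. Wt1-205, with the insert and exon 5, had 5.45 TPM and 5.91 TPM. Wt1-202, with exon 5 and no insert, had 3.25 TPM in replicate 1 and 4.50 TPM in replicate 2, again with overlapping intervals (1.58 to 4.62 TPM and 2.51 to 6.15 TPM). The deposited posterior SD of the Wt1-201 count was 41.8 on 350 in replicate 1 and 46.2 on 251 in replicate 2. Each model fixes 1 combination of first exon, exon 5 and insert, so a share of one feature cannot be told apart from the choice of model. Reads that cover only 1 of these sites were assigned by the authors' software across the models.

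**Figure D3:**
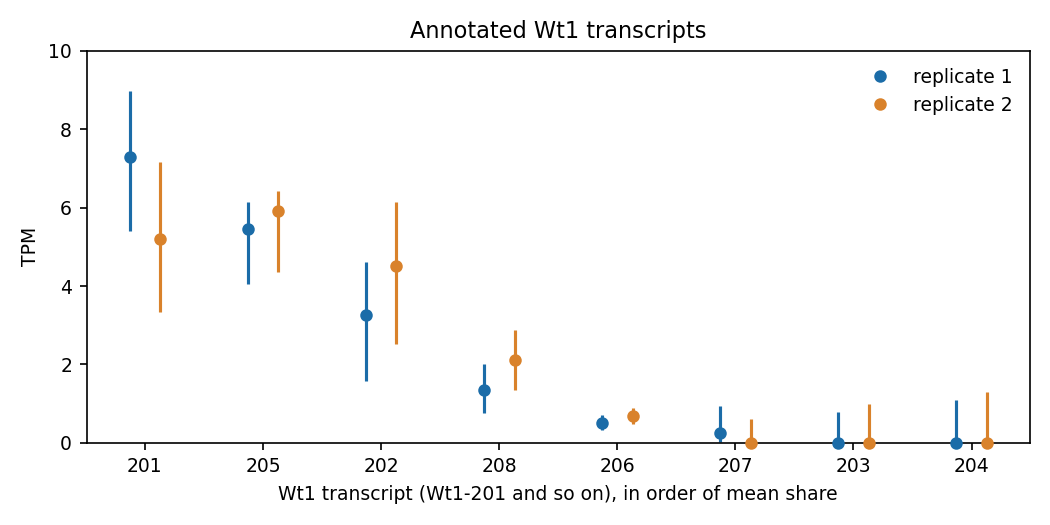
Level of each of the 8 annotated Wt1 transcripts in TPM (vertical axis) in replicate 1 (blue, left) and replicate 2 (orange, right), in order of mean share. Points are the deposited TPM and lines the authors' credibility intervals. For Wt1-201, at 7.29 TPM in replicate 1 and 5.20 TPM in replicate 2, these intervals overlap, and Wt1-203 and Wt1-204 are listed at 0 in both hearts.

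Next to Wt1, the divergent long non-coding RNA Wt1os starts 19 bases from the Wt1 start on the other strand. It was at 0.80 TPM in replicate 1 and 0.83 TPM in replicate 2, from 17 and 22 counts, which is below the detection limit of 1 TPM.

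Tcf21, on chr10:22817281-22820174 (minus strand), encodes a basic helix-loop-helix (bHLH) factor of epicardial cells that is needed for cardiac fibroblasts. Tcf21 had 50.8 TPM in replicate 1 and 56.1 TPM in replicate 2, from 1195 and 1327 counts. The difference was -0.10 (95% interval -0.21 to 0.02), so the counting interval reached 0. Tcf21 stood 2.81 times above Wt1 in replicate 1 and 3.05 times in replicate 2. It was also the highest of the 6 bHLH genes examined, 5 of which were detected, and stood 3.33 and 4.50 times above Tcf15, a factor of somites and of cardiac capillary endothelium, which had 15.2 TPM in replicate 1 and 12.5 TPM in replicate 2. An antisense gene annotated over Tcf21, Gm10824, has no row in the tables used here.

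Scx, on chr15:76457452-76459458 (plus strand), encodes scleraxis, a bHLH factor of tendon progenitors and heart valves that also marks a subset of proepicardial cells. Scx had 5.99 TPM in replicate 1 and 7.11 TPM in replicate 2. With 130 and 155 counts it was the shallowest of the 9, and its difference of -0.20 had the widest interval (-0.55 to 0.15). Tcf21 was 8.48 times above Scx in replicate 1 and 7.89 times in replicate 2.

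The Scx value carries an added uncertainty from its position. The whole gene lies inside Bop1, a ribosome biogenesis gene on the opposite strand, and whether counting used strand is not stated. Bop1 had 24.4 TPM in replicate 1 and 23.6 TPM in replicate 2, or 4.08 and 3.32 times Scx. The difference of Bop1 was 0.10, a sign opposite to that of Scx. Only the spans of the genes were compared, so whether exons of Scx and Bop1 share bases was not examined. Without strand, reads from stretches that both genes cover cannot be told apart. The deposited posterior SD of the Scx count, the uncertainty from reads shared between models, was 0 in both hearts.

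The uroplakins come next, membrane proteins best known from the plaques of the bladder surface. Upk3b, on chr5:136038496-136046487 (plus strand), is used as a marker of mesothelium in several organs. Upk3b had 26.7 TPM in replicate 1 and 41.5 TPM in replicate 2, from 1253 and 1962 counts. This was the largest difference among the 9 genes, -0.59 (95% interval -0.70 to -0.49), or 1.51-fold lower in replicate 1. It lies just past the 1.5-fold limit, and the interval spans that limit. The authors' credibility intervals, 24.6 to 27.4 TPM in replicate 1 and 38.6 to 42.2 TPM in replicate 2, do not overlap.

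Upk1b, on chr16:38773184-38800328 (minus strand), encodes a tetraspanin uroplakin. Upk1b had 13.7 TPM in replicate 1 and 15.4 TPM in replicate 2, from 478 and 541 counts. Its difference was -0.12 (95% interval -0.30 to 0.06), which includes 0. The ratio of Upk3b to Upk1b was therefore not the same in the hearts, at 1.95 in replicate 1 and 2.70 in replicate 2. The ratio of Upk3b to Wt1 was 1.47 and 2.26.

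The other uroplakins examined were close to absent. Upk3a, the bladder counterpart of Upk3b, had 0 counts in both hearts, and 3 counts of it would have equalled 0.142 TPM in each. On that floor per library, Upk3b was at least 187-fold higher than Upk3a in replicate 1 and at least 293-fold higher in replicate 2. Upk2 had 0 counts in replicate 1 and 2 in replicate 2, Upk1a 2 and 7, and the Upk3b-like gene Upk3bl 1 and 7. The Upk3b count carried a deposited posterior SD, the uncertainty from reads shared between models, of 0 in both hearts.

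Among the surface proteins, Msln, on chr17:25748613-25754378 (minus strand), encodes mesothelin, a surface glycoprotein of mesothelial cells. Msln had 23.1 TPM in replicate 1 and 20.8 TPM in replicate 2, from 974 and 882 counts. With TMM scaling it was the only one of the 9 with an interval wholly above 0, at 0.20 (95% interval 0.06 to 0.33). With spike-in scaling the difference of Msln fell to 0.09, and no interval was computed. Its mean was 22.0 ± 1.62 TPM, and its relative Mslnl had 0 counts in replicate 1 and 1 in replicate 2.

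Lrrn4, on chr2:132868305-132880891 (minus strand), encodes a leucine-rich repeat membrane protein found in mesothelia and in neurons. Lrrn4 had 6.60 TPM in replicate 1 and 9.26 TPM in replicate 2, from 499 and 704 counts. Lrrn4 was lower in replicate 1 by -0.44 on the log2 scale (95% interval -0.61 to -0.27), a 1.36-fold difference, and the authors' intervals of 5.87 to 6.99 TPM and 8.37 to 9.71 TPM do not overlap. Its ratio to Lrrn2, a family member at 8.89 TPM in replicate 1 and 9.35 TPM in replicate 2, was 0.742 and 0.990. Of the 5 genes of the family list 3 were detected, the other being Lrrn3 at 3.83 TPM and 4.10 TPM. Lrrn1 was also lower in replicate 1, by -1.13, but at 38 and 87 counts it lay near the detection limit.

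Upk3b and Lrrn4 had the largest differences, with the same sign, and their promoter sequences are printed for that reason. RefSeq windows (GRCm38.p6) from 250 bases before to 50 bases after the start were at hand for 4 of the 9 genes, namely Lrrn4, Sema3d, Upk3b and Tcf21. Both are written 5′ to 3′ on the gene's own strand. Capitals mark matches on either strand to GGAATG, a motif of TEAD factors, to the E-box CANNTG bound by bHLH factors, and to GTGGGNG, a short motif of WT1 and EGR zinc fingers. Upk3b lies at chr5:136038246-136038545 on the plus strand and Lrrn4 at chr2:132880813-132881112 on the minus strand.
Upk3b promoter: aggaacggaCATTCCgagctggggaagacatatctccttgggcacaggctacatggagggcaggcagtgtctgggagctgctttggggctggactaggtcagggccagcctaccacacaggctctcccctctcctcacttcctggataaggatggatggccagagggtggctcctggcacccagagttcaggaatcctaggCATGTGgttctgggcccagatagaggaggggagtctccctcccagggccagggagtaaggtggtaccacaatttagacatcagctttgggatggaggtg
Lrrn4 promoter: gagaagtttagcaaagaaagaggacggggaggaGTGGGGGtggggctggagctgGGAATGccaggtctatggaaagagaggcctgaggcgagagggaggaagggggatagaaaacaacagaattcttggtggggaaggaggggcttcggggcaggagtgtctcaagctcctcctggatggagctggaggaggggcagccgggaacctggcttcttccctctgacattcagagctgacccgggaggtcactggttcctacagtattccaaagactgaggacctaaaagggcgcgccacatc

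Both windows hold the TEAD letters once, as CATTCC in Upk3b and GGAATG in Lrrn4. Of all 32851 promoters in the table, 14.7% hold them, and the windows of Sema3d and Tcf21 do not. An E-box stands once in Upk3b and 3 times in Sema3d, with 72.3% of all promoters holding at least one. The short WT1 and EGR letters stand once in Lrrn4, as in 31.6% of all promoters. Neither the GC box GGGCGG (35.7% of all promoters) nor TATAAA (13.6%) occurs in any of the 4 windows. GC content was 58.7% for Upk3b, 58.0% for Lrrn4, 53.3% for Tcf21 and 49.7% for Sema3d, beside a median of 52.7% over all promoters. These matches describe letters and say nothing of binding.

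Krt19, on chr11:100140810-100148665 (minus strand), encodes the smallest type I keratin of simple epithelia, a class that includes mesothelium. Krt19 had 24.5 TPM in replicate 1 and 27.8 TPM in replicate 2, from 617 and 695 counts. Its difference of -0.12 (95% interval -0.28 to 0.04) includes 0. Of its 3 listed transcripts, 2 had counts. The coding Krt19-201 took 63.8% of Krt19 TPM in replicate 1 and 61.8% in replicate 2, and Krt19-203, annotated as a processed transcript, 36.2% and 38.2%. Weighed by counts, Krt19-201 took 78.2% and 76.7%, since Krt19-203 is the shorter model.

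Krt19 was the most abundant of the 5 simple keratins examined. Krt18, its type I relative, had 12.3 TPM in replicate 1 and 16.4 TPM in replicate 2, which puts Krt19 at 1.99 and 1.69 times Krt18. Krt7 had 7.37 TPM and 10.2 TPM, and Krt19 was 3.32 and 2.72 times above it. All 5 keratins were lower in replicate 1, with none past 1.5-fold and a median difference of -0.23.

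Sema3d, on chr5:12383385-12588948 (plus strand), encodes a secreted class 3 semaphorin of the epicardium that acts on endothelial cells and pulmonary vein patterning in mice. Sema3d had 10.0 TPM in replicate 1 and 10.9 TPM in replicate 2, from 1346 and 1468 counts. Its difference was -0.07 (95% interval -0.18 to 0.04), one of the smallest of the 9. Per length, Sema3d and Sema3a were close in level, with a ratio of 0.913 in replicate 1 and 1.06 in replicate 2. Sema3c, which guides outflow tract septation, was lower, with Sema3d at 1.39 and 1.20 times its level. Gm8925 and Gm42909, annotated inside Sema3d, have no row in the tables used here.

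Genes of other tissues were also looked at, since mesothelium and Wt1 are not confined to the heart. The lists mark lung epithelium, kidney and liver but not mesothelium, so mesothelium from other organs was not tested. Lung epithelium was nearly absent, with 0 of 6 markers detected and a summed level of 0.11 TPM in replicate 1 and 0.33 TPM in replicate 2, Sftpc being at 0 counts in both hearts. Podocyte and kidney markers, from cells that also use Wt1, summed to 0.01 TPM and 0.21 TPM, with Pax2 at 0 counts in both. Of 6 liver markers 1 was detected, Ahsg at 1.56 TPM in replicate 1 and 3.60 TPM in replicate 2, while Hnf4a had 0 counts in both.

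Markers of general epithelium had differences of the same sign as Upk3b, Lrrn4 and the keratins with TMM scaling. Msln (0.20) and Wt1 (0.04) had the other sign. With spike-in scaling Msln was at 0.09 and Wt1 at -0.08, so the sign of Wt1 rests on the scaling. Of the 10 epithelium markers, 1 was detected in both hearts. Together the 10 reached 3.56 TPM in replicate 1 and 6.89 TPM in replicate 2, from 118 and 285 counts. All 7 whose mean count was 10 or more were lower in replicate 1, and 4 of them were past 1.5-fold. These were Epcam with 3 and 54 counts, Cdh1 with 17 and 58, Esrp2 and Cldn7. Of all genes at a mean count of 10 or more, 6.14% were past 1.5-fold lower in replicate 1, and 1.34% at 100 or more. The 7 had mean counts below 100, where such differences are more common, and the share at their depth was not computed. The detected one was Krt14, at 1.20 TPM in replicate 1 and 1.46 TPM in replicate 2. No marker of the list was at 0 in both hearts. Summed TPM of these markers does not measure how many such cells a heart sample held. The part of such cells in the Upk3b and Lrrn4 differences was not tested.

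Other genes of the epicardium were mostly less abundant than the 9. Of 12 listed, 11 had a row and 8 were detected in both hearts. They ran from 0.58 to 22.4 TPM over the hearts, with a median of 3.73 TPM in replicate 1 and 4.90 TPM in replicate 2, while the 9 genes ran from 5.99 to 56.1 TPM with medians of 18.1 TPM and 18.4 TPM. The 3 most abundant reached the levels of the 9. Aldh1a2, which makes retinoic acid, had 20.3 TPM in replicate 1 and 22.4 TPM in replicate 2. Gpm6a, a membrane glycoprotein, had 18.5 TPM and 18.6 TPM, and Podxl, an anti-adhesive sialomucin, 11.4 TPM and 12.7 TPM. Their median difference was -0.09, with 6 of 11 lower in replicate 1, and 1 was past 1.5-fold, Dmkn at 14 and 8 counts. Upk3b thus differed between the hearts by more than any detected gene of that list.

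**Figure D4:**
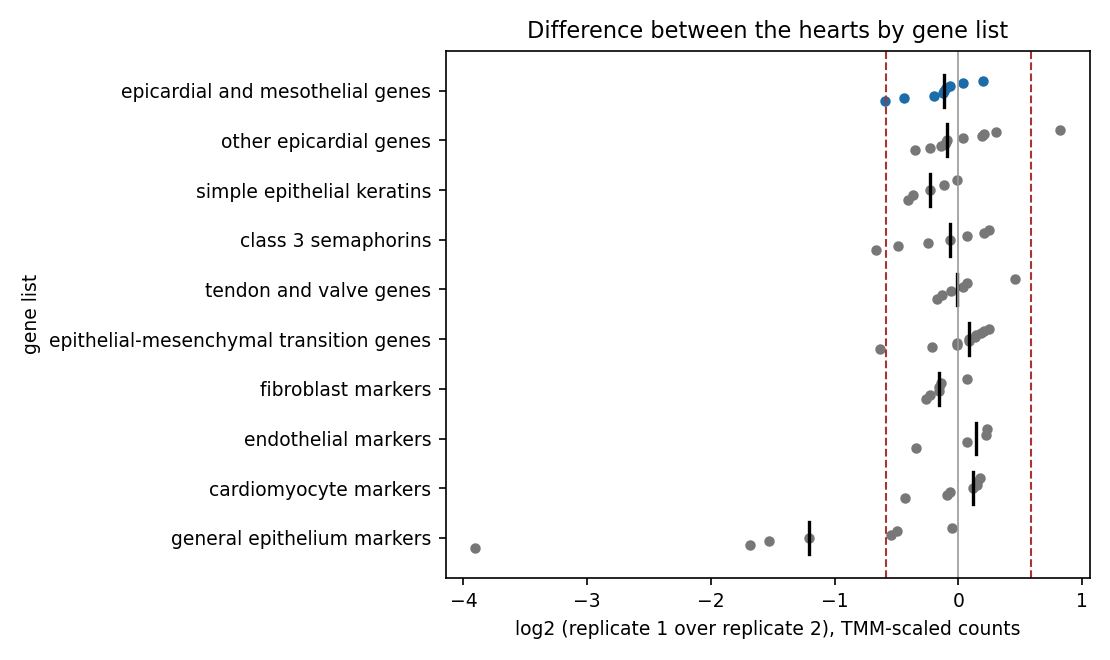
Difference between the hearts, log2 of replicate 1 over replicate 2 (horizontal axis), for every gene of 10 lists whose mean count was 10 or more. Blue points are the 9 epicardial and mesothelial genes, grey points the other lists, black ticks the list medians and dashed lines 1.5-fold. The 9 genes have a median of -0.12 and the general epithelium markers one of -1.20.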

How the data were processed

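The 2 total RNA-seq libraries, 1 per heart, were read from the deposited gene and transcript tables. Per the file headers, the authors' tables give expected counts (estimated counts), TPM and FPKM values, posterior means and credibility intervals. The text files deposited beside them name mm10 and GENCODE M4. Aligner, quantification tool and use of strand: not given in the sources used here. Names, positions and exons came from GENCODE M21 (GRCm38) by identifier without version, and 42462 of 43346 gene rows (98.0%) matched a symbol. Transcript lengths of Scx, Sema3d, Tcf21, Upk1b and Upk3b differ between these releases (2346 against 3530 bases for Upk3b), which bears on their TPM.

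Expected counts were rounded to whole numbers and scaled by TMM in edgeR 4.0.16 (R 4.3.3) on genes passing its expression filter. Log2 differences used a prior count of 0.5, and 1.5-fold was the limit. Intervals are 95% Clopper-Pearson on the share of both counts. They were computed with TMM scaling only, so whether an interval includes 0 holds for that scaling. A gene with 0 counts was bounded at 3 counts. The hearts are separate libraries, differing beyond sampling noise with a mean chi-square of 14.2 per gene over 16387 genes. Percent shares of transcripts were computed from the deposited TPM. The scaling and log2 steps were tested on simulated counts with known 2-fold differences and sampling noise only. That test did not cover the spread between hearts or the 1.5-fold limit.

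DESeq2 1.42.0 size factors, spike-in scaling, total counts, TPM ratios, posterior means, another prior, other count and fold limits, FPKM and each heart alone were alternatives. The genes and all lists were chosen with earlier results of these data known. Named are all 9 genes, the 3 most abundant of each other list, any listed gene at or past 1.5-fold whose mean count reached 50, and genes overlapping a member. The lung and kidney lists, with no gene detected, are an exception and are given by their sums. Others (Upk3a, Upk2, Upk1a, Mslnl, Sftpc, Pax2, Hnf4a, Dmkn, Sema3e, Epcam, Cdh1, Esrp2, Cldn7, Grhl2, Trp63, Alb, Ttr, Tie1, Myl7, Wt1os) were named after their values were seen.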

Additional observations from a re-analysis of the deposited data

How the results depend on the processing

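The count of 1 gene past 1.5-fold, Upk3b, held under DESeq2 size factors, spike-in scaling, total counts, TPM ratios, posterior mean counts, a prior of 2 and the other count limits, and fell to 0 at a 2-fold limit. The median difference of the 9 genes stayed negative under each of these scalings. The summed level of 193 TPM was 141 as deposited FPKM. Each heart alone gives the 179 and 207 TPM stated above, which is no separate check. By share of expected counts, Krt19-201 took 77.5% (62.8% by TPM) and Wt1 transcripts with exon 5 took 59.7% (52.3% by TPM); both follow from the models' lengths. Of the levels and differences of single genes, 84 moved by less than their spread and 15 by more. The 84 include the differences by posterior mean counts, which could not move. The 15 include the differences of Upk3b (-0.70) and Sema3d (-0.18) under spike-in scaling. None was called in the opposite direction, although the uncalled Wt1 difference changed sign as stated. No paired analysis was possible because the libraries form 1 group. Depth limits Scx, the minor Wt1 transcripts and genes of few counts, and 2 hearts do not give the spread between embryos.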

Other observations

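The receptors through which class 3 semaphorins act were all detected, 7 of 7. Nrp1, a neuropilin of endothelium and mesenchyme, had 60.9 TPM in replicate 1 and 63.3 TPM in replicate 2. Plxnd1, the endothelial plexin, had 30.4 TPM and 29.1 TPM, and Plxna1 7.54 TPM and 7.73 TPM. None of the 7 was past 1.5-fold, and their median difference was 0.01. Of the 7 ligands 5 were detected, and 1 was past 1.5-fold, Sema3e at 32 and 53 counts.

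Genes listed for epithelial-mesenchymal transition were detected throughout, 11 of 11. Whole tissue does not tell which cells made them, and transition of the epicardium was not tested. The most abundant were Vim at 800 TPM in replicate 1 and 861 TPM in replicate 2, Cdh2 at 172 TPM and 163 TPM, and Tgfb2 at 39.1 TPM and 38.4 TPM. Their median difference was 0.09, and 1 was past 1.5-fold, Twist1 at 3.02 TPM in replicate 1 and 4.86 TPM in replicate 2. Fibroblast markers, products of cells that partly descend from epicardium, were lower in replicate 1 for 5 of 6 genes, with a median difference of -0.16 and a summed level of 1538 TPM and 1776 TPM. Col3a1 had 634 TPM in replicate 1 and 781 TPM in replicate 2, Col1a1 348 TPM and 397 TPM, and Postn 261 TPM and 251 TPM.

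Of the 7 tendon and valve genes set beside Scx, 5 were detected. Thbs4 had 28.7 TPM in replicate 1 and 28.1 TPM in replicate 2, Col14a1 16.2 TPM and 17.1 TPM, and Sox9 13.9 TPM and 16.1 TPM. None of the 6 whose mean count reached 10 was past 1.5-fold. Endothelial and cardiomyocyte markers were mixed in sign and none was past 1.5-fold. Of 4 endothelial markers 3 were higher in replicate 1, with a median difference of 0.15, while Tie1 differed by -0.34, the largest of the 4. Pecam1 had 62.2 TPM in replicate 1 and 54.5 TPM in replicate 2, Cdh5 47.3 TPM and 41.9 TPM, and Kdr 34.6 TPM and 34.1 TPM. Of 7 cardiomyocyte markers 4 were higher in replicate 1, with a median difference of 0.12, and 3 were lower, among them Myl7 with the largest difference, -0.43. Actc1 had 12209 TPM in replicate 1 and 11607 TPM in replicate 2, Myl2 8559 TPM and 7939 TPM, and Tnnt2 6128 TPM and 5706 TPM. Liver markers were split, with Alb and Afp higher and Apoa1, Ttr and Ahsg lower in replicate 1, each by more than 1.5-fold at low counts. Of all genes at a mean count of 10 or more, 10.4% were past 1.5-fold, and 1.95% at 100 or more. These liver markers lay below 100, and the share at their depth was not computed.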
